A study of Mus musculus with 9 samples.

Results

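The genes described here are the receptors that sense bacterial peptidoglycan and danger inside the cell, together with the adaptors, caspases and pore-forming protein that act after them. They are 9 genes chosen by symbol, *Nod1*, *Nod2*, *Ripk2*, *Nlrp3*, *Nlrc4*, *Pycard*, *Casp1*, *Casp4* and *Gsdmd*, of 24054 genes listed in the files. All 9 passed the filter on low counts (a mean count of 1 or more over the libraries) and so were among the 14452 genes tested. Their mRNA was sequenced in type 2 dendritic cells of the spleen, in 3 groups of 3 libraries each. All mice were C57BL/6 and carried Clec9a-Cre/Cre Rosa-tdTomato/tdTomato. Cells that express *Clec9a*, or descend from cells that did, are thus TOMATO positive. The first group was TOM+ cDC2 of mice at postnatal day 8, the second TOM- DC2 of mice of the same age, and the third TOM+ cDC2 of adult mice, aged 9 weeks for library 1 and 8 weeks for libraries 2 and 3. All were sorted as CD11b+, CD11c+ and MHCII+ cells without autofluorescence, and the young groups were sorted from pooled spleens. Adult TOM- cells were not analysed here, so that age was compared for TOM+ cDC2 only, and the comparison of adult TOM+ cDC2 with young TOM- DC2 combines age and *Clec9a* history.

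NOD1 and NOD2 are cytosolic receptors for fragments of bacterial peptidoglycan, and both pass their signal to the kinase RIPK2, which activates NF-κB and MAP kinases. NLRP3 and NLRC4 start inflammasomes, protein assemblies in which the adaptor ASC, encoded by *Pycard*, brings sensors and caspase-1 together. Caspase-1 matures IL-1β and IL-18, caspase-11, encoded by *Casp4*, responds to cytosolic lipopolysaccharide, and both cut gasdermin D into the fragment that opens pores in the membrane. Dendritic cells express much of this machinery and release IL-1 family cytokines when it is engaged.

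Across the series, between 12783252 and 22809401 reads per library were counted on genes, and the members were well covered, from 128 counts for *Casp4* in a TOM- DC2 library to 5820 for *Nod1* in another. All 11 cDC2 markers were expressed in each group, with a summed level of 17500 to 19000 TPM in young libraries and 30000 to 32200 TPM in adults. Most of that sum was *H2-Ab1*, an MHC class II gene (16800, 16200 and 28800 TPM on average in young TOM+ cDC2, young TOM- DC2 and adults). Between adult and young TOM+ cDC2, 7 of the 11 markers were higher and 3 lower. *Esam* rose from 19 to 80 TPM (log2FC 2.21, adjusted p = 7.2e-06), while *Clec10a* was at 43.2 and 11.7 TPM (-1.8, adjusted p = 4.6e-05), *Sirpa* at 753 and 470 TPM (-0.56, adjusted p = 0.00025) and *Itgam*, which encodes the CD11b of the sort, at 147 and 77.9 TPM (-0.78, adjusted p = 0.00012). The part of these shifts in the results of age was not tested. Levels in TPM are relative to all transcripts of a library and corrected for length. Markers of other cells that use inflammasomes were low for neutrophils (4.61 to 10.7 TPM summed over the list in 8 libraries, and 38.3 TPM in TOM- DC2 library 1, which also held *Ngp* at 15.5 TPM and a summed erythroid level of 1170 TPM). The monocyte list summed to 1690 to 1760 TPM in young TOM+ cDC2, 1470 to 1580 TPM in young TOM- DC2 and 1380 to 1460 TPM in adults, with *Fcgr1* and *F13a1* under 1 TPM on average in all groups. Most of this sum was *Plac8* (1280, 1100 and 917 TPM on average in the same order). Of 10 monocyte markers, 2 passed as higher and 5 as lower in adult than in young TOM+ cDC2. The macrophage list summed to 369 to 400, 483 to 543 and 265 to 330 TPM in the same order, and the ILC3 list to 30.2 to 38.4 TPM in TOM- DC2 against 3.33 to 5.53 TPM in the TOM+ groups. The part of these cells in the results was not tested. Deposited names carry a number, 81, 91 or 92 in both young groups and 91, 92 or 95 in adults, given here as libraries 1, 2 and 3 of each group. The young libraries numbered 81 stood apart: their chi-square per gene against the other libraries of their group was 20.9 to 23.0, against 8.74 and 11.1 between the other young pairs. Among adults, library 3 lay farther from libraries 1 and 2 (20.4 and 16.9) than these from each other (11.7). In sorted bulk samples, fewer expressing cells and less RNA per cell cannot be told apart.

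With age, members of the group moved in both directions, and less than the most changed genes of the cells. Adult TOM+ cDC2 had more *Nlrp3*, *Nod1*, *Nod2*, *Nlrc4* and *Casp4* transcript than young TOM+ cDC2 and less *Pycard*. These 6 of 9 members had an adjusted p under 0.05, 5 higher and 1 lower, where 40.6% of all genes tested did, 19.5% higher and 21% lower. The changes were moderate: 0 of 9 members also had a log2 fold change (log2FC) beyond 1, the limit used by the study for calling a gene, against 12.8% of all genes, and DESeq2 and limma called 0 as well. The median log2FC of the members was 0.36, and that of all genes -0.05. Tests were edgeR's quasi-likelihood test with Benjamini-Hochberg adjustment over all genes, here and below unless another is named. Scaling by library totals alone, in place of TMM, moved the median of all genes by -0.2 and left 2 members higher, *Nod1* and *Nlrp3*, and *Pycard* lower.

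**Figure D1:**
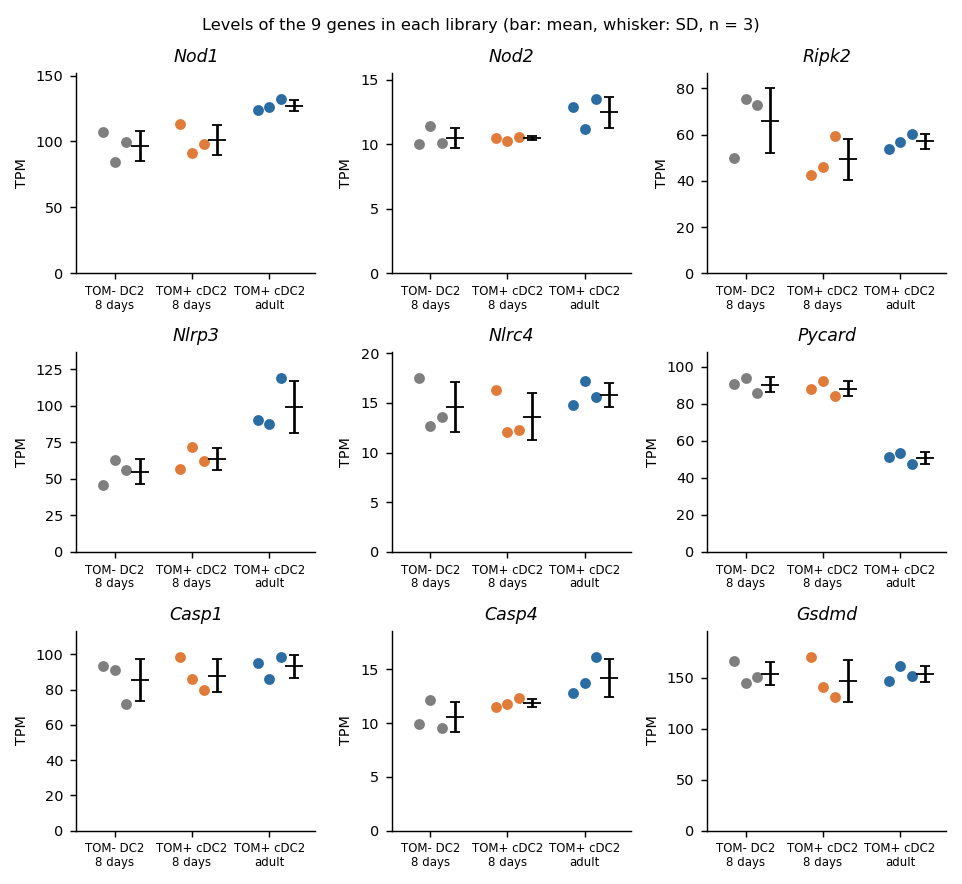
TPM of each of the 9 genes (vertical axes, from 0) in each library, as points for TOM- DC2 and TOM+ cDC2 at 8 days and adult TOM+ cDC2, with the mean and SD of 3 libraries beside them. *Nlrp3* and *Nod1* were higher in each adult library than in every young one, and *Pycard* was at 47.3 to 53.6 TPM in adults and 84 to 93.9 TPM in young mice.

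Against young TOM- DC2, 5 of 9 members of adult TOM+ cDC2 passed an adjusted p of 0.05, where 36.3% of all genes did. *Nod1*, *Nod2*, *Nlrp3* and *Casp4* were higher (16.9% of all genes) and *Pycard* was lower (19.4% of all genes). *Nlrp3* was the 1 member past the fold limit as well, against 11.3% of all genes, and its call did not hold under several alternatives given below. This comparison uses the same adult libraries as the former, so the results are not independent. On the scale of CPM, read counts relative to the TMM-scaled library size, the groups did not overlap for 8 of 9 members in either age comparison, 7 higher and *Pycard* lower. Some of these gaps were minimal. *Nlrc4* was at 36.9 CPM in TOM- DC2 library 1 and 37 CPM in adult library 1. *Gsdmd* was at 177 CPM in both young TOM+ cDC2 library 1 and adult library 3. In TPM, *Nlrc4*, *Casp1* and *Gsdmd* overlapped in both age comparisons, and *Nod2* overlapped between adults and TOM- DC2. Of all genes, 51.1% did not overlap between adult and young TOM+ cDC2 (24% higher and 27.1% lower), and 47.6% did not overlap between adult TOM+ cDC2 and young TOM- DC2 (21.5% higher and 26.1% lower).

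**Figure D2:**
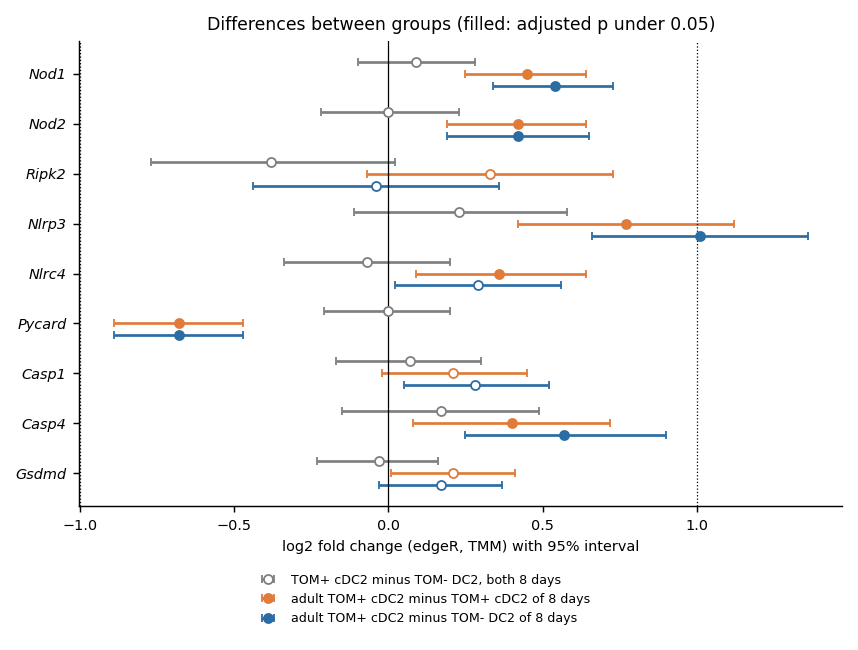
Log2FC of the 9 genes (horizontal axis, with 95% intervals from the edgeR fit) in the 3 comparisons, filled where the adjusted p was under 0.05 and with dotted lines at a log2FC of 1 and -1. *Pycard* alone lies to the left in both age comparisons, at -0.68 in each, and *Nlrp3* lies farthest to the right, at 0.77 and 1.01.

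Of the receptors for peptidoglycan, *Nod1* (GRCm38 chromosome 6, 54923942 to 54972674, minus strand) was the more abundant. Its level was 113, 91.5 and 97.9 TPM in young TOM+ cDC2, 107, 84.4 and 99.3 TPM in young TOM- DC2, and 124, 126 and 132 TPM in adult TOM+ cDC2. Each adult library was above every young one. *Nod1* was 1.36-fold higher in adult than in young TOM+ cDC2 (log2FC 0.45 ± 0.09 SE, adjusted p = 0.0014) and 1.45-fold higher than in young TOM- DC2 (log2FC 0.54 ± 0.09, adjusted p = 0.00045). It kept an adjusted p under 0.05 in both comparisons under each of 12 alternative settings and without each single library.

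*Nod2* (chromosome 8, 88647315 to 88688474, plus strand) was lower in level, at 10.5, 10.3 and 10.6 TPM in young TOM+ cDC2, 10, 11.4 and 10.1 TPM in young TOM- DC2, and 12.9, 11.2 and 13.5 TPM in adults. The lowest adult library lay below the highest TOM- DC2 library on this scale. *Nod2* was 1.34-fold higher in adults than in either young group (log2FC 0.42 ± 0.1 in both, adjusted p = 0.0059 against TOM+ cDC2 and 0.0065 against TOM- DC2). This depended on scaling: with library totals alone its log2FC was 0.22 (adjusted p = 0.094) and 0.2 (adjusted p = 0.13), and it did not pass in the limma fits on TPM either (0.22 to 0.25, adjusted p = 0.1 to 0.12). *Nod1* was 8.9 to 10.8 times *Nod2* in TPM in young TOM+ cDC2 and 9.62 to 11.2 times in adults, and these ranges overlapped.

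*Ripk2* (chromosome 4, 16122732 to 16163678, minus strand), the kinase that NOD1 and NOD2 share, did not pass the test in either age comparison. It was at 42.6, 46.1 and 59.4 TPM in young TOM+ cDC2, 49.8, 75.3 and 72.9 TPM in young TOM- DC2 and 53.8, 56.9 and 60.5 TPM in adults. The adult libraries lay within the range of the young ones. Its log2FC was 0.33 ± 0.18 against young TOM+ cDC2 (adjusted p = 0.16, 95% interval -0.07 to 0.73) and -0.04 ± 0.18 against young TOM- DC2 (adjusted p = 0.87, -0.44 to 0.36). Without TOM+ cDC2 library 3 the first of these was 0.53 (adjusted p = 0.043).

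*Nlrp3* (chromosome 11, 59541569 to 59566955, plus strand), the sensor of ion flux and membrane damage, showed the largest rise of the members. Its level was 56.5, 71.6 and 62.5 TPM in young TOM+ cDC2, 45.7, 62.6 and 56.1 TPM in young TOM- DC2, and 90.2, 87.8 and 119 TPM in adults. All 3 adult libraries were above all 6 young ones, and the highest was adult library 3. *Nlrp3* was 1.71-fold higher than in young TOM+ cDC2 (log2FC 0.77 ± 0.16, adjusted p = 0.0019) and 2.01-fold higher than in young TOM- DC2 (log2FC 1.01 ± 0.16, adjusted p = 0.00036). The adjusted p stayed under 0.05 in both comparisons under each of 12 alternatives and without each single library, but the log2FC against TOM- DC2 lay at the limit of 1. It was 0.99 with upper quartile scaling and in DESeq2, 0.79 with library totals alone, 0.84 and 0.85 in the limma fits, 0.76 with the replicate block, 0.88 without the libraries numbered 81, 0.86 without TOM- DC2 library 1 and 0.88 without adult library 3. The replicate block takes the number in the deposited names as a factor. Adult library 3, alone under its number, does not inform the age comparisons of the block. Adult and young libraries of the same number hardly deviated together from their group means (r = -0.002 to 0.041), which limits this block here and below.

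*Nlrc4* (chromosome 17, 74426255 to 74459144, minus strand), which is engaged by NAIP proteins bound to flagellin or secretion system parts, had a low level, at 16.3, 12.1 and 12.3 TPM in young TOM+ cDC2, 17.5, 12.7 and 13.6 TPM in young TOM- DC2 and 14.8, 17.2 and 15.6 TPM in adults. The young libraries numbered 81 had the highest value of each young group and overlapped the adults. Its log2FC in adults was 0.36 ± 0.12 against young TOM+ cDC2 (adjusted p = 0.032) and 0.29 ± 0.12 against young TOM- DC2 (adjusted p = 0.081). The first did not pass without TOM+ cDC2 library 2 (0.31, adjusted p = 0.11), without library 3 (0.34, adjusted p = 0.09), without adult library 2 (0.29, adjusted p = 0.11), with library totals alone (0.16, adjusted p = 0.33) or in the limma fits (0.22, adjusted p = 0.28, and 0.23, adjusted p = 0.27). The second passed without TOM- DC2 library 1 (0.4, adjusted p = 0.029), without the libraries numbered 81 (0.41, adjusted p = 0.011) and with the replicate block (0.42, adjusted p = 0.0014).

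*Pycard* (chromosome 7, 127991373 to 127993867, minus strand), which encodes the adaptor ASC, was the 1 member that fell with age. It was at 88.2, 92.2 and 84 TPM in young TOM+ cDC2, 90.9, 93.9 and 86 TPM in young TOM- DC2, and 51, 53.6 and 47.3 TPM in adults. The young groups lay together and the adults apart from both. The adult level was 0.625 times that of young TOM+ cDC2 (log2FC -0.68 ± 0.09, adjusted p = 0.00012) and 0.624 times that of young TOM- DC2 (log2FC -0.68 ± 0.09, adjusted p = 0.00015). The log2FC ranged from -0.9 to -0.64 over 12 alternative settings in the 2 comparisons and passed in each, and it did so without each single library.

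In TPM, sensor and adaptor exchanged their order with age. The ratio of *Nlrp3* to *Pycard* TPM, which does not depend on how libraries are scaled, was 0.641, 0.776 and 0.745 in young TOM+ cDC2, 0.503, 0.666 and 0.653 in young TOM- DC2 and 1.77, 1.64 and 2.53 in adults. Each young library held less *Nlrp3* than *Pycard* in TPM and each adult library more. Where the ratio crosses 1 depends on the transcript lengths used for TPM (mean 4021 bases for *Nlrp3* and 2135 for *Pycard*). In counts, *Nlrp3* was already above *Pycard* in young TOM+ cDC2 (2573 against 2082, 2918 against 1981 and 3078 against 2153). The same held in TOM- DC2 libraries 2 and 3 but not in library 1 (1565 against 1612). The ratio of *Casp1* to *Pycard* TPM was 0.834 to 1.11 in young libraries and 1.61 to 2.09 in adults. Both ratios were chosen after the values were seen and were not tested.

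**Figure D3:**
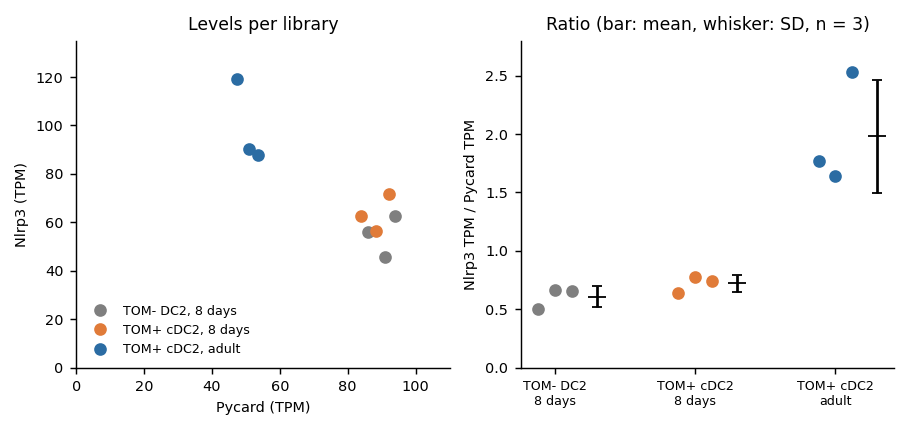
Left, *Nlrp3* against *Pycard* in TPM, each point a library; right, their ratio in each library with the mean and SD of 3 libraries per group. The adult libraries lie above and to the left of all 6 young ones, with ratios of 1.64 to 2.53 against 0.503 to 0.776.

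Because these genes moved in opposite directions, the 250 bases before their RefSeq start sites are shown, read from RefSeq on GRCm38.p6 and written in the direction of transcription. RefSeq gave 10 start sites for 7 of the 9 members, and no sequence was used for *Ripk2* and *Gsdmd*. The bases just after the upstream *Nlrp3* start were not found in a GENCODE M21 transcript of the gene, while those after the other starts were. Capitals mark GAGGAAG on either strand (CTTCCTC when read from the other strand), the core of sites for PU.1-type ETS factors, which shape myeloid cells.
Nlrp3, upstream start, chr11:59541319-59541568, plus strand: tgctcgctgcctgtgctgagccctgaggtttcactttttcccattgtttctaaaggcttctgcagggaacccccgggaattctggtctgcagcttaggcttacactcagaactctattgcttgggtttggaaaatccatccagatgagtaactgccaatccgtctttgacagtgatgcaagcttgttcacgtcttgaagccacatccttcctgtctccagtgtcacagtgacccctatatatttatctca
Nlrp3, downstream start, chr11:59542436-59542685, plus strand: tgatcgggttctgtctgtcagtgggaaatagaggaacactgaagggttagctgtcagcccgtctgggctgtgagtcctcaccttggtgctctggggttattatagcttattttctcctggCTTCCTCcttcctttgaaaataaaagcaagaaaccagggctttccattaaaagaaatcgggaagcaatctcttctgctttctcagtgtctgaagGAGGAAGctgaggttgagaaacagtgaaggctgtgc
Pycard, chr7:127993868-127994117, minus strand: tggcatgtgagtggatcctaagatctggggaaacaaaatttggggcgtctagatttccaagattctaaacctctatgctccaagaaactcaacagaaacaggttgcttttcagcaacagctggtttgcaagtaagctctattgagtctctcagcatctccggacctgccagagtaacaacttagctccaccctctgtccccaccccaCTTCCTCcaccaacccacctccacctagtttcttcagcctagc
The downstream *Nlrp3* window held these letters at positions -130 to -124 and -36 to -30 from the start, and the *Pycard* window at -43 to -37, while 10.6% of 32851 RefSeq windows of this length held them. The same search on both strands for TGANTCA (AP-1 type, in 6.75% of all windows) and TATAAA (the core promoter box, in 12.4%) found none in the 10 windows. GGGCGG (GC box, 32.7% of all windows) stood 3 times in the *Nod2* window and once in that of *Nod1*. These are matches of letters and no evidence of binding.

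Of the caspase genes, *Casp1* did not pass in either age comparison with the main fit. *Casp1* (chromosome 9, 5298517 to 5307281, plus strand) was at 98.4, 85.8 and 79.8 TPM in young TOM+ cDC2, 93.7, 91.3 and 71.7 TPM in young TOM- DC2 and 95, 86.3 and 98.8 TPM in adults, so that the groups overlapped in TPM. Its log2FC in adults was 0.21 ± 0.11 (adjusted p = 0.13) against young TOM+ cDC2 and 0.28 ± 0.11 (adjusted p = 0.056) against young TOM- DC2. The second value just passed without TOM+ cDC2 library 3 (0.3, adjusted p = 0.05) and without TOM- DC2 library 2 (0.36, adjusted p = 0.03), and in 6 of 12 alternatives, the replicate block (0.31, adjusted p = 0.0037) and DESeq2 (0.29, adjusted p = 0.029) among them. With the block the first passed too (0.24, adjusted p = 0.019).

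*Casp4* (chromosome 9, 5308849 to 5336791, plus strand), which lies 1567 bases after *Casp1*, was at 11.5, 11.8 and 12.3 TPM in young TOM+ cDC2, 9.96, 12.2 and 9.55 TPM in young TOM- DC2 and 12.8, 13.7 and 16.2 TPM in adults. Every adult library was above every young one. Its log2FC was 0.4 ± 0.14 against young TOM+ cDC2 (adjusted p = 0.042) and 0.57 ± 0.15 against young TOM- DC2 (adjusted p = 0.0085). With 128 to 230 counts per library it had the fewest reads of the members, and the first value did not pass without any 1 of TOM+ cDC2 libraries 1, 2 and 3 (adjusted p = 0.12, 0.067 and 0.069) and adult libraries 2 and 3 (adjusted p = 0.09 and 0.12). Neither passed with library totals alone (0.21, adjusted p = 0.27, and 0.35, adjusted p = 0.066). The first also did not pass with the replicate block (0.28, adjusted p = 0.14), without the libraries numbered 81 (0.37, adjusted p = 0.1), with no filter (0.4, adjusted p = 0.053) or in the limma fits (0.24, adjusted p = 0.15, and 0.26, adjusted p = 0.14). As *Casp1* and *Casp4* are related in sequence, reads of one could in part be counted on neither.

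*Gsdmd* (chromosome 15, 75862144 to 75867408, plus strand), the substrate from which the pore is made, had the highest level of the members in each group. It was at 171, 141 and 131 TPM in young TOM+ cDC2, 167, 145 and 151 TPM in young TOM- DC2 and 147, 162 and 152 TPM in adults. The adult libraries lay between the young ones. The log2FC of 0.21 ± 0.09 against young TOM+ cDC2 had an adjusted p of 0.083, and that of 0.17 ± 0.09 against TOM- DC2 an adjusted p of 0.15. Without TOM+ cDC2 library 1 the first was 0.29 (adjusted p = 0.029), with the replicate block 0.29 (adjusted p = 0.0045) and in DESeq2 0.23 (adjusted p = 0.041). With the block the second was 0.25 (adjusted p = 0.011), and with library totals alone the second was -0.05.

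Compared per length, the order of levels was shared in its ends and changed in its middle. *Gsdmd* stood first and *Nod1* second in all 3 groups, and *Nlrc4*, *Casp4* and *Nod2* stood in the places 7 to 9. In young TOM+ cDC2 the neighbours *Nod1*, *Pycard* and *Casp1* (mean 101, 88.1 and 88 TPM) overlapped in range. *Pycard* was at rank 3 in both young groups and at rank 6 in adults (mean 50.7 TPM ± 3.19 SD, n = 3), below *Ripk2* (57.1 TPM ± 3.37) and with no overlap between them. *Nlrp3* was at rank 5 in young TOM+ cDC2, 6 in young TOM- DC2 and 3 in adults (99.1 TPM ± 17.7), where it overlapped *Casp1* (93.3 TPM ± 6.41).

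At 8 days, no member passed the test between TOM+ cDC2 and TOM- DC2 without pairing of the libraries. None of the 9 was called, where 1.18% of all genes were, none had an adjusted p under 0.05, where 1.6% did, and none had an unadjusted p under 0.05, where 9.38% did. DESeq2 and limma also passed 0 members. The log2FC, TOM+ cDC2 over TOM- DC2, ranged from -0.38 for *Ripk2* to 0.23 for *Nlrp3* with a lowest adjusted p of 0.55, and the groups overlapped for all 9 members, while 16.6% of all genes did not. The intervals were narrow for *Pycard* (95% interval of the log2FC -0.21 to 0.2), *Nod2* (-0.22 to 0.23), *Gsdmd* (-0.23 to 0.16) and *Nod1* (-0.1 to 0.28), and wider for *Ripk2* (-0.77 to 0.02).

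Young libraries numbered 81 and those numbered 92 deviated together from their group means (r = 0.5 and 0.33). For the number 91 r was 0.179, under the 0.185 of a pair with different numbers. With the number as a block in a fit of the 6 young libraries, 2 of 9 members passed an adjusted p of 0.05, where 11.8% of all genes did, 5.12% higher and 6.71% lower in TOM+ cDC2. *Ripk2* was lower in TOM+ cDC2 in 3 of 3 pairs, with TPM ratios of 0.855, 0.612 and 0.816 for the numbers 81, 91 and 92 (log2FC -0.36 ± 0.07, adjusted p = 0.0018). *Nlrp3* was higher in TOM+ cDC2 in 3 of 3 pairs, with ratios of 1.24, 1.14 and 1.11 (log2FC 0.24 ± 0.05, adjusted p = 0.0016). For the other 7 members the blocked log2FC lay between -0.08 and 0.18 and the adjusted p was 0.2 or more. Among these, *Nlrc4* (ratios of 0.934, 0.948 and 0.905, adjusted p = 0.61) was also lower in 3 of 3 pairs. So was *Pycard* (0.971, 0.981 and 0.977, adjusted p = 0.99). The share of all genes with 3 pairs in 1 direction was not counted, so this agreement alone tells little. With the block and without the pair numbered 81, *Ripk2* still passed (log2FC -0.46, adjusted p = 4.5e-07) and *Nlrp3* did not (0.19, adjusted p = 0.064). Without the pair numbered 91, *Ripk2* did not pass (-0.2, adjusted p = 0.059) and *Nlrp3* did (0.26, adjusted p = 0.00054), and both passed without the pair numbered 92 (-0.43, adjusted p = 0.0021, and 0.27, adjusted p = 0.002). The fits that leave out a pair were chosen after seeing the data. The summed levels of the ILC3 list and the macrophage list were higher in TOM- DC2. Without pairing, 3 ILC3 markers passed as lower in TOM+ cDC2 and 0 as higher. Of the macrophage markers, 1 passed as higher in TOM+ cDC2 and 0 as lower. *Cd163*, of that list, was at 4.34 TPM in TOM+ cDC2 and 2.29 TPM in TOM- DC2 on average. The part of these lists in the *Ripk2* and *Nlrp3* differences was not tested.

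**Figure D4:**
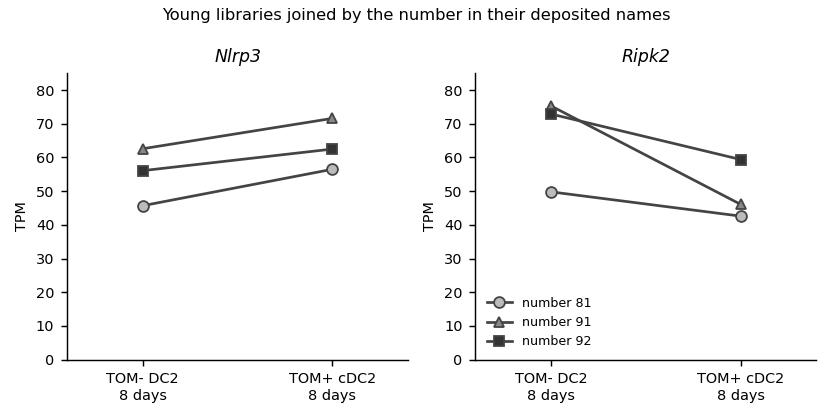
TPM of *Nlrp3* (left) and *Ripk2* (right) in young TOM- DC2 and TOM+ cDC2, with a line joining the libraries whose deposited names carry the same number. Within each pair *Nlrp3* was higher and *Ripk2* lower in TOM+ cDC2, while the groups as a whole overlapped for both genes.

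The wider pathway was described by 80 other genes in 6 lists, of which 77 were tested and 3, *Nlrp2*, *Nlrp12* and *Casp12*, were under the count limit. Between adult and young TOM+ cDC2, 47 of 77 passed an adjusted p of 0.05 (61% against 40.6% of all genes), 38 higher and 9 lower, and 14 were beyond the fold limit as well (18.2% against 12.8% of all genes), 13 higher and 1 lower. Against young TOM- DC2, 43 passed (55.8% against 36.3%), 38 higher and 5 lower. Between the young groups 1 passed (1.3% against 1.6%). With the young libraries paired by number, 12 passed (15.6% against 11.8%), 5 higher and 7 lower in TOM+ cDC2. The shares describe lists chosen with earlier results of these data known and were not tested as sets.

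Among other genes of the NOD-like receptor family and other inflammasome sensors, 6 of 14 tested were higher and 1 lower in adult than in young TOM+ cDC2. Of all genes, 19.5% were higher and 21% lower. *Mefv*, which encodes the inflammasome sensor pyrin, was at 46.2 to 60.1 TPM in young TOM+ cDC2, 34.1 to 46.1 TPM in TOM- DC2 and 137 to 176 TPM in adults (log2FC 1.67 ± 0.12, adjusted p = 8.9e-07 against young TOM+ cDC2, and 2.07 ± 0.12, adjusted p = 2.5e-07 against TOM- DC2). *Nlrc5*, the activator of MHC class I genes, rose from 7.29 to 9.37 TPM in young TOM+ cDC2 to 27.2 to 34.7 TPM in adults (log2FC 2.06 ± 0.13, adjusted p = 4.8e-07). *Ciita*, the activator of MHC class II genes, had the highest mean of the list and a log2FC of -0.26 ± 0.12 (adjusted p = 0.099). The 1 lower gene, named after its values were seen, was *Naip2*, a receptor upstream of NLRC4 (log2FC -0.53, adjusted p = 0.0022), while its relative *Naip5* was higher (0.46, adjusted p = 0.0044). The *Naip* genes are near-copies of each other, and their separate counts are uncertain.

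Of 5 genes for the transport of peptidoglycan fragments, 2 were higher in adults and none lower (19.5% and 21% of all genes against young TOM+ cDC2). *Slc46a3*, a lysosomal transporter, was at 348 to 436 TPM in young TOM+ cDC2 and 557 to 613 TPM in adults (log2FC 0.74 ± 0.09, adjusted p = 6e-05). *Slc15a4*, which carries such fragments and histidine out of the endolysosome, was at 85.7 to 93.5 TPM and 129 to 150 TPM (log2FC 0.78 ± 0.1, adjusted p = 5.8e-05). Against TOM- DC2 the same pair passed, with log2FC of 0.74 and 0.84.

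In the list for signalling after NOD1, NOD2 and RIPK2, 13 of 23 genes were higher and 1 lower in each age comparison (all genes, 19.5% and 21% against young TOM+ cDC2, 16.9% and 19.4% against TOM- DC2). The ubiquitin ligases cIAP2, encoded by *Birc3*, and cIAP1, encoded by *Birc2*, moved most. *Birc3* was at 118 to 153 TPM in young TOM+ cDC2 and 225 to 293 TPM in adults (log2FC 1.12 ± 0.1, adjusted p = 6.7e-06), and *Birc2* at 31.3 to 45 and 64.4 to 82.4 TPM (log2FC 1.06 ± 0.12, adjusted p = 2.3e-05). Both were under the fold limit with library totals alone (log2FC 0.92 for *Birc3* and 0.87 for *Birc2*) and in both limma fits on TPM, and *Birc2* also without TOM+ cDC2 library 2 (0.99) or adult library 3 (0.96). Against TOM- DC2, *Birc2* was under it (0.89), and *Birc3* fell under it with library totals alone (0.85), in both limma fits and without adult library 3. The MAP kinase p38α gene *Mapk14* (log2FC 0.67 ± 0.1, adjusted p = 0.00014) and the NF-κB inhibitor gene *Nfkbia* (0.4 ± 0.1, adjusted p = 0.0079) were the most abundant of the list. The lower gene, named after its values were seen, was *Tab1*, a partner of the kinase TAK1 (log2FC -0.79, adjusted p = 0.0003). With library totals alone the list had 8 higher and 2 lower genes against young TOM+ cDC2, and 5 higher and 3 lower against TOM- DC2.

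Of 11 genes that trigger or restrain inflammasomes, 4 were higher and 2 lower in adult than in young TOM+ cDC2 (19.5% and 21% of all genes), and with library totals alone 3 and 4. *Serpinb1a*, an inhibitor of serine proteases and of inflammatory caspases, was the 1 pathway gene that passed between the young groups without pairing. It was at 54.2, 50 and 57 TPM in TOM- DC2, 18.3, 19.3 and 17.4 TPM in young TOM+ cDC2 and 7.47, 7.78 and 8.07 TPM in adults, with no overlap between any pair of groups. The log2FC was -1.51 ± 0.1 between young TOM+ cDC2 and TOM- DC2 (adjusted p = 7.4e-06), where 1.16% of all genes were called lower, and -1.1 ± 0.11 between adult and young TOM+ cDC2 (adjusted p = 1.1e-05). It passed both limits under each of 12 alternatives and without each single library. Of the 11 other pathway genes that passed with the libraries paired, *Slc15a2*, a peptide transporter (log2FC -0.56, adjusted p = 0.0022), and *Mefv* (0.42, adjusted p = 0.00017) had the largest changes in each direction, and are named after their values were seen. *Pydc4* and *Pydc3*, which encode proteins made of little but a pyrin domain, were at 0.82 to 3.3 TPM in young libraries and at 10.5 to 14.3 and 8.56 to 11 TPM in adults (log2FC 3.06 ± 0.33, adjusted p = 1.9e-05, and 2.45 ± 0.47, adjusted p = 0.0014 against young TOM+ cDC2). They are close copies, so their separate counts are uncertain. *Txnip*, which binds NLRP3, was at 201 and 191 TPM in the young libraries numbered 81 and at 96.5 to 115 TPM in the other young libraries, against 177 to 192 TPM in adults (log2FC 0.55 ± 0.23, adjusted p = 0.07).

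The cytokine *Il1b* was among the most abundant of all these genes. It was at 2690, 3280 and 3180 TPM in young TOM+ cDC2, 2560, 3490 and 2890 TPM in young TOM- DC2 and 5360, 6490 and 7080 TPM in adults. Each adult library was above each young one (log2FC 1.17 ± 0.15, adjusted p = 6.3e-05, and 1.23 ± 0.15, adjusted p = 5.5e-05). *Il18bp*, the soluble inhibitor of IL-18, rose from 0.86 to 1.6 TPM in young TOM+ cDC2 to 4.68 to 6.15 TPM in adults (log2FC 2.03 ± 0.35, adjusted p = 0.00062). In this list of 12 substrates and outputs, 5 genes were higher and 4 lower than in young TOM+ cDC2, against 19.5% and 21% of all genes. *Hmgb1*, a nuclear protein released by dying cells, was lower, at 77.6 to 90.8 TPM in adults and 147 to 169 TPM in young TOM+ cDC2 (log2FC -0.78 ± 0.1, adjusted p = 8.4e-05). Against young TOM+ cDC2 the log2FC of *Il1b* was under 1 with library totals alone (0.97) and with the replicate block (0.98).

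Guanylate-binding proteins and immunity-related GTPases include members that bring lipopolysaccharide to caspase-11, a role not claimed here for each gene of the list. Of 12 tested, 8 were higher and 1 lower in adults in both age comparisons. The shares of all genes were 19.5% and 21% against young TOM+ cDC2 and 16.9% and 19.4% against TOM- DC2. With library totals alone the counts were 8 and 1 against young TOM+ cDC2 and 7 and 1 against TOM- DC2. *Gbp4* was at 16.2 to 24.1 TPM in young TOM+ cDC2 and 44.7 to 53.6 TPM in adults (log2FC 1.43 ± 0.13, adjusted p = 6e-06), *Gbp2* at 10.7 to 14.7 and 28.9 to 32.4 TPM (1.35 ± 0.15, adjusted p = 2e-05). *Gbp5* (1.43 ± 0.25), *Gm12250* (1.56 ± 0.2) and *Gbp9* (1.04 ± 0.12) also passed both limits, and *Irgm1* had a log2FC of 0.92 ± 0.11 (adjusted p = 3.9e-05). *Gbp9* was under the fold limit with library totals alone (0.84), in both limma fits on TPM (0.92 and 0.93) and without TOM+ cDC2 library 2 or 3 or adult library 3 (0.97 to 0.99), and against TOM- DC2 its log2FC was 0.8. *Gbp2* and *Gbp4* fell under it against TOM- DC2 with library totals alone (0.95 and 0.98). The lower gene, named after its values were seen, was *Gbp7* (log2FC -0.36, adjusted p = 0.034). Guanylate-binding proteins are similar in sequence, which makes single genes of the family uncertain.

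**Figure D5:**
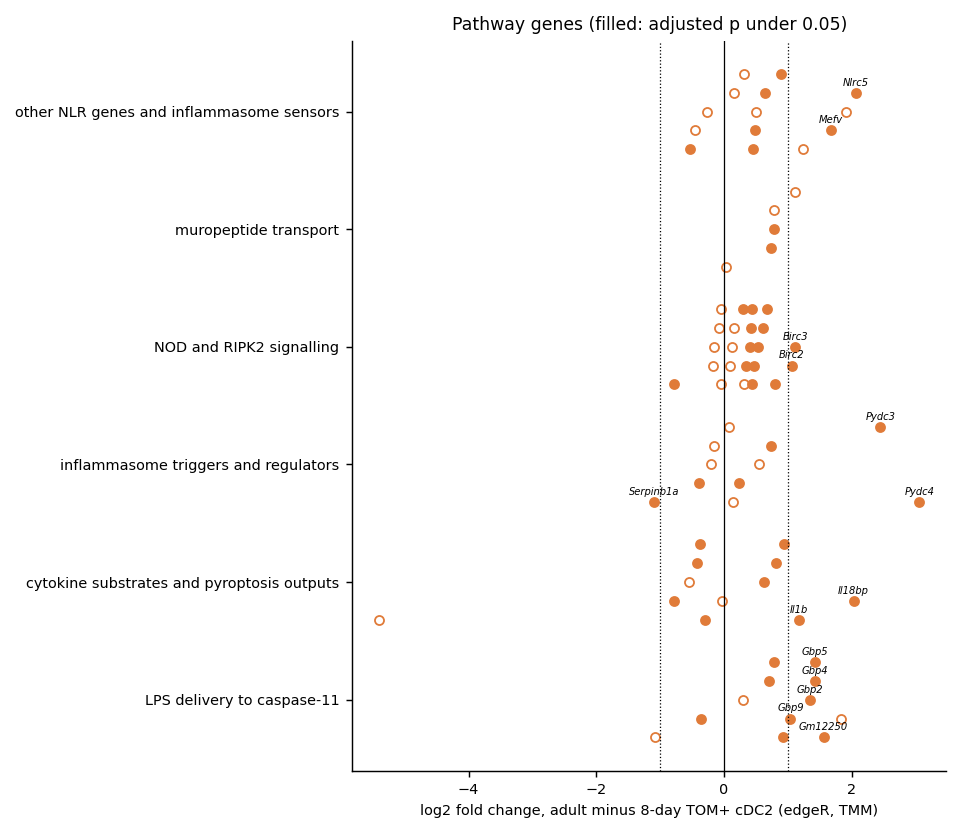
Log2FC of 77 pathway genes between adult and young TOM+ cDC2 (horizontal axis), 1 row of points per list with a small vertical spread for legibility, filled where the adjusted p was under 0.05, named where also beyond a log2FC of 1 in either direction (dotted lines). The farthest open point on the left is *Il33*, which had almost no reads.

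For *Nlrp3*, the member past both limits against TOM- DC2 with TMM scaling, the 3 tested genes with the most similar log2 CPM over the 9 libraries among 10112 genes were *Tmem159* (Pearson r = 0.982), *Ifitm2*, an interferon-induced membrane protein (0.978), and *Hap1* (0.977). The points share group and depth, and r is a description. *Ifitm2* was at 758 to 910 TPM in young TOM+ cDC2, 573 to 721 TPM in TOM- DC2 and 1320 to 1570 TPM in adults.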

How the data were processed

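Cells were sorted into lysis buffer, RNA was amplified with a SMART-seq v4 kit, which keeps no strand, and 50-base single-end reads were sequenced by the authors. Per the labels, STAR and RSEM were used with mm10, versions not given in the sources used here. The deposited counts are STAR's unnormalized reads per gene, of which the unstranded column was used. Reads on no gene (26.14% to 31.63% of all reads) were kept out of library sizes. The authors deposited RSEM's expected counts on RefSeq transcripts, rounded here where tested, and TPM, relative to each library's total and used for levels. Depth was 12783252 to 22809401 gene counts, and no library was a copy of another.

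Counts were tested in R 4.3.3 with edgeR 4.0.16 (quasi-likelihood, TMM) on all 9 libraries in 3 groups, keeping genes whose mean count was 1 or more. A gene was called at a log2FC beyond 1 and an adjusted p under 0.05, and members past the adjusted p alone are given beside it. Intervals are 95% intervals of the fit. DESeq2 1.42.0 with apeglm 1.24.0 and limma 3.58.1 on log2(TPM + 1) or log2(TPM + 0.1) were alternatives. The fits were tested on simulated data, with recovery counted at an adjusted p under 0.05. Of 1.5-fold changes, 54% were recovered between the young groups, 50% between adult and young TOM+ cDC2 and 60% against TOM- DC2. Of 2-fold changes, 94%, 94% and 92% were recovered in the same order. Between the young groups, a change of 1.5-fold or less can thus go unseen in a member that did not pass. The simulation changed 50 genes at each fold, while 5861 and 5247 genes passed in the age comparisons. Its shares may not carry over to these. For members that did not pass against young TOM+ cDC2, the upper 95% limits of the log2FC were 0.73 (*Ripk2*), 0.45 (*Casp1*) and 0.41 (*Gsdmd*). Against TOM- DC2 they were 0.56 (*Nlrc4*), 0.52 (*Casp1*), 0.37 (*Gsdmd*) and 0.36 (*Ripk2*). The labels number no replicates, so p-values measure the spread between these libraries, of pooled spleens in young mice, and part of it may be technical. The labels do not say what the numbers in the deposited names mark. Same-number deviations of young libraries from the group means correlated at r = 0.5, 0.179 and 0.33 for 81, 91 and 92. For young libraries of different numbers r was -0.409 to 0.185, so the number 91 joined its libraries no more closely than the highest of these. Adult libraries were not paired, except in the replicate block over all 9 libraries. Named genes were the members, pathway genes called in a comparison or the 2 highest of each list, and the 3 genes most like a called member. Members and lists were chosen with earlier results of these data known.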

Additional observations from a re-analysis of the deposited data

How the results depend on the processing

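Nod1, Nlrp3 and Pycard kept their direction and an adjusted p under 0.05 in both age comparisons under all 12 alternatives and without each single library. Scaling by library totals alone, chosen after seeing the data, shifted the median of all genes by -0.2 against young TOM+ cDC2 and -0.22 against TOM- DC2, and changed the split of called genes from 991 higher and 862 lower to 743 and 1245, and from 691 and 940 to 491 and 1414. It left 2 members higher in each age comparison, and so did limma on TPM with either pseudocount against young TOM+ cDC2. Nlrp3's call against TOM- DC2, the 1 member called, became 0 members called with upper quartile scaling, library totals, DESeq2, both limma fits, the replicate block and without the young libraries numbered 81 (an alternative added after seeing the data). limma on log2(TPM + 1) called 1122 and 986 genes in place of 1853 and 1631, and log2(TPM + 0.1) moved the medians by -0.12 and -0.15, with 809 of 1898 and 533 of 1794 calls higher.

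With the replicate block the young comparison called 341 genes in place of 170, with 1 member higher and 1 lower. The block over all 9 libraries joins adult and young libraries numbered 91 and 92, whose deviations correlated at r = -0.002 to 0.041. Adult library 3 shares its number with no other library, so it did not inform these age comparisons. In this block 7 members were higher against TOM- DC2, with Nlrp3 at 0.76. Against young TOM+ cDC2, Casp1 (0.24, adjusted p = 0.019) and Gsdmd (0.29, adjusted p = 0.0045) passed and Casp4 (0.28, adjusted p = 0.14) did not. Without the libraries numbered 81, Gsdmd passed (0.31, adjusted p = 0.016) and Casp4 did not (0.37, adjusted p = 0.1) against young TOM+ cDC2, and Nlrc4 (0.41, adjusted p = 0.011) and Casp1 (0.32, adjusted p = 0.049) passed against TOM- DC2.

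Values near 0 changed sign. Nod2 between the young groups was 0 or below (-0.02 with upper quartile or library totals, -0.01 with both limma fits, 0 with an average count of at least 10, -0.05 without the libraries numbered 81), and Gsdmd against TOM- DC2 was -0.05 with library totals and -0.01 with both limma fits. Leaving out 1 library at a time gave -0.07 to 0.08 for Nod2, -0.06 to 0.05 for Pycard, -0.12 to 0.03 for Gsdmd, -0.18 to 0.03 for Nlrc4 and -0.04 to 0.15 for Casp1 between the young groups, and -0.24 to 0.08 for Ripk2 against TOM- DC2. It gave 126 to 176, 1638 to 1887 and 1486 to 1679 called genes in the 3 comparisons, 3 to 5 members higher against young TOM+ cDC2 and 4 to 5 against TOM- DC2, and 0 to 1 members called against TOM- DC2. The causes were not tested. At 128 counts, depth limits Casp4 most.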
